A study of Mus musculus with 6 samples.

Results

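The filament proteins of the lens and the lamins of its nuclei were followed in newborn mouse lenses that lack the heat shock transcription factor Hsf4. The members are 7 genes, taken by name: Bfsp1 and Bfsp2, Vim, Nes, Lmna, Lmnb1 and Lmnb2. Every probe set whose annotation gives exactly 1 gene symbol, that symbol being one of these, was used. A probe set is a group of short oligonucleotides on the array against a transcript. This gave 15 of 22626 tested probe sets and 6 of 12393 genes, because no probe set carries the single symbol Bfsp2, which is therefore not analysed here. The 6 arrays hold RNA from lenses of newborn ICR mice, 3 labelled wild type and 3 labelled HSF4 null, each amplified from 50 ng of total RNA. Neither the number of animals behind each RNA nor the deleted part of Hsf4 is stated in the labels or methods, and the methods call the samples biological triplicates.

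Intermediate filaments are ropes of coiled-coil proteins that give a cell mechanical strength. Lens fiber cells hold vimentin (Vim) and, in addition, the beaded filament, a structure found in the lens that is built from filensin (Bfsp1) and phakinin (Bfsp2) and lies along the fiber cell membrane with alpha-crystallins on it. Nestin (Nes) is a large filament protein of progenitor cells that assembles with vimentin. The lamins form the meshwork under the inner nuclear membrane, with A-type lamins made from Lmna and B-type lamins from Lmnb1 and Lmnb2, and fiber cells dismantle that meshwork with the nucleus as they mature. Hsf4 is a heat shock factor active in the lens.

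Values are the study's RMA intensities, taken to log2, so that a difference of 1 is a doubling, and each probe set is read only against itself across arrays. The Hsf4 probe set lay at 9.09, 9.39 and 9.56 in wild-type and at 4.26, 4.09 and 3.78 in Hsf4-null lenses. Array medians ran from 5.22 to 5.38, and log2 values correlated at 0.991 to 0.994 within a group and more weakly, from 0.982, between groups. Lens fiber markers were bright on every array: the summed intensity of 7 of them was 79210 to 82733 in wild-type and 75576 to 81283 in Hsf4-null lenses. Arrays differed in markers of other tissue. Tubb3, a neuronal tubulin, lay at 5.67, 6.95 and 5.27 in wild-type and at 7.62, 4.03 and 7.63 in Hsf4-null lenses, so that wild-type replicate 2 and Hsf4-null replicates 1 and 3 carried the most of it.

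To show the sequence in front of the member that fell and of the filament gene it was compared with, the 250 bases before the annotated start of Bfsp1 and of Vim are printed from RefSeq, build GRCm38.p6. For Bfsp1 this is chr2:143863174-143863423 on the minus strand, and for Vim chr2:13574061-13574310 on the plus strand. Capitals mark a TGCTGA core of the kind bound by Maf factors, here read from the other strand, in Bfsp1, and a TATAAA box in Vim.
Bfsp1: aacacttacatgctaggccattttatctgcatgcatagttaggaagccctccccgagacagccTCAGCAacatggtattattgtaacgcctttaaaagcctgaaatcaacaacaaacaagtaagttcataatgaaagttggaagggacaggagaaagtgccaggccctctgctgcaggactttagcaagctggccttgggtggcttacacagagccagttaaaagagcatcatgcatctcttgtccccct
Vim: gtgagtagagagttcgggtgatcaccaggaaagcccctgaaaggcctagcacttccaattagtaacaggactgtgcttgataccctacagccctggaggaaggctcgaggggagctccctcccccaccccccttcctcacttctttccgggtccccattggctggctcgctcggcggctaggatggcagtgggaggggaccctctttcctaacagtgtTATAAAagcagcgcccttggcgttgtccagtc
The TGCTGA core begins 187 bases before the start of Bfsp1 and the TATAAA box 32 bases before that of Vim. Heat shock factors bind inverted repeats of a GAA unit, and both orientations of a pair, GAANNTTC and TTCNNGAA, each of which reads the same on both strands, were searched. Neither was found in the 250 bases before Bfsp1 or Vim, nor in any of the 8 such windows searched for the members, in which Lmnb1 was not included. Among 32851 windows of this length 6.69% held the first pair and 7.17% the second. TATAAA was in 7.59% of windows, and TGCTGA, on either strand, in 16.1%, among them windows of Bfsp1, Nes and Lmnb2. These matches describe the letters in the windows, and binding of a factor was not measured.

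Bfsp1, which encodes filensin, was the member that fell. Its deposited intensities were 10503, 10396 and 9943 on the wild-type arrays, and on the Hsf4-null arrays 3224, 3516 and 3095. On the log2 scale this is 13.36, 13.34 and 13.28 against 11.65, 11.78 and 11.60. The highest Hsf4-null array thus stood well under the lowest wild-type array, and arrays of one genotype lay within a narrow band. Group means were 13.33 ± 0.04 (SD, n = 3) and 11.68 ± 0.09 (SD, n = 3). Bfsp1 fell by 1.65 in log2 units (limma, adjusted p = 0.000131, 95% confidence interval -1.87 to -1.43), which leaves 31.9% of the wild-type level (interval 27.3% to 37.2%). It passed the threshold of each of the 16 other settings tried, among them the methods' t-test without adjustment, with log2 fold changes from -1.70 to -1.61.

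Bfsp1 was the 1 of 6 measured members past the threshold, beside 2.88% of all genes tested, 2.11% of them lower. Over the 15 probe sets 1 passed, beside 2.66% of all probe sets, and 2 had an unadjusted p under 0.05, beside 15.4% of all. The median log2 fold change of the 6 genes was -0.02, and that of all genes 0.01. Among genes, Bfsp1 ranked 44 by size of decrease. Its probe set is bright, and few probe sets at that level passed: of 292 with a mean at or above that of Bfsp1, 1 was called by limma in either direction, Bfsp1 itself.

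**Figure D1:**
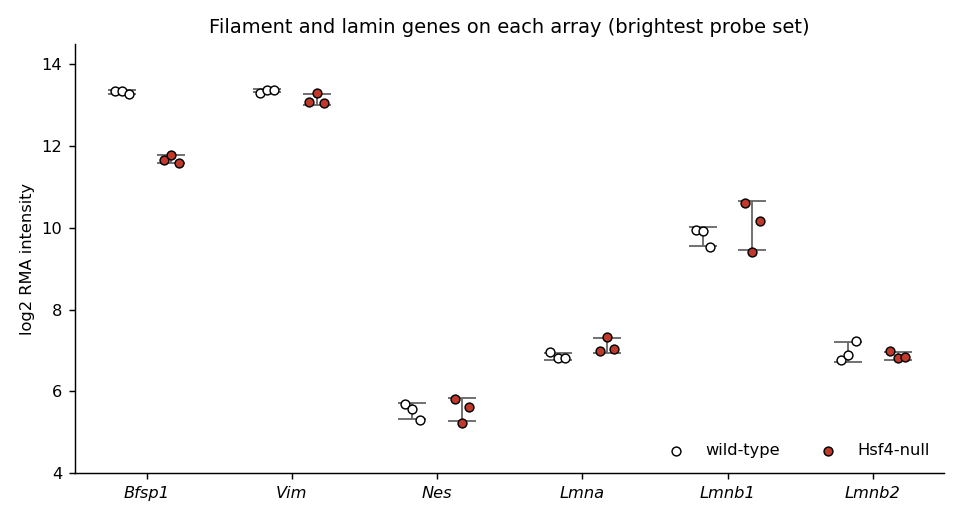
Log2 RMA intensity (vertical axis) of the brightest probe set of each of the 6 measured genes, with a point per array, open for wild-type and filled for Hsf4-null lenses, and bars at the mean ± SD of 3 arrays. The Hsf4-null points of Bfsp1, at 11.60 to 11.78, lie clear of its wild-type points at 13.28 to 13.36, while those of Lmnb1 are widely spread.

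Lens fiber markers were set beside Bfsp1. Of 7 measured, 1 fell, the fiber nuclease gene Dnase2b (by 1.24), beside 2.11% of all genes that fell. The other 6 did not pass limma in either direction or at an unadjusted p under 0.05. Of these 6, Cryba1, Cryaa, Crygd and Crygs are crystallin genes with means from 13.88 to 14.33, at the top of the array's scale, where the highest mean of any probe set is 14.3. They make up most of the summed intensity of the list, and whether they could have shown a change at that level was not tested. Mip, the main membrane protein of fibers, was also high on the scale, with means of 13.20 and 13.05, and was not tested for this either. It stood at -0.14 (standard error 0.11). Well below them, Gja3, a fiber connexin with means of 8.88 and 8.85, was at -0.04 (standard error 0.12). In whole lenses, fewer cells of a kind and less RNA in each cell cannot be told apart.

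Vim, the vimentin gene, was within 0.21 log2 units of its wild-type level on every probe set. It has 3 probe sets, all bright. The brightest lay at 13.31, 13.38 and 13.36 in wild-type and at 13.08, 13.29 and 13.05 in Hsf4-null lenses. The second lay at 13.12, 13.16 and 13.11 against 13.07, 13.04 and 13.01. The third lay at 12.49, 12.48 and 12.47 against 12.28, 12.32 and 12.31. In all 3 probe sets each Hsf4-null array was below each wild-type array, by a gap of 0.02, 0.05 and 0.155. Such a separation downwards was seen in 11.7% of all probe sets.

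None of the Vim probe sets passed limma. Their log2 fold changes were -0.21 (limma, adjusted p = 0.388, interval -0.45 to 0.03), -0.09 (interval -0.30 to 0.11) and -0.18 (interval -0.38 to 0.02), each with an unadjusted p above 0.05. The interval of the brightest probe set runs from 73.2% to 102% of the wild-type level. The methods' t-test, which does not share the spread across probe sets, gave another call: at an unadjusted p under 0.05 it passed 3 of the 15 member probe sets, Bfsp1 and the last 2 of Vim, beside 12.9% of all. After Benjamini-Hochberg adjustment it passed 2, Bfsp1 and the third Vim probe set (adjusted p = 0.0454), beside 0.376% of all. Within-group SDs of that Vim probe set were 0.01 and 0.02.

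The filensin and vimentin transcripts moved unequally. In each array the log2 value of the brightest Vim probe set was taken from that of Bfsp1. This difference was 0.05, -0.04 and -0.08 in wild-type and -1.42, -1.51 and -1.46 in Hsf4-null lenses. It shifted by -1.44 between genotypes (two-sided exact permutation test, p = 0.1, and 0.3 after adjustment over 3 pairs of members). With 3 arrays against 3 a p of 0.1 is the smallest that test can give. The same difference between Bfsp1 and Bfsp2 could not be computed.

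**Figure D2:**
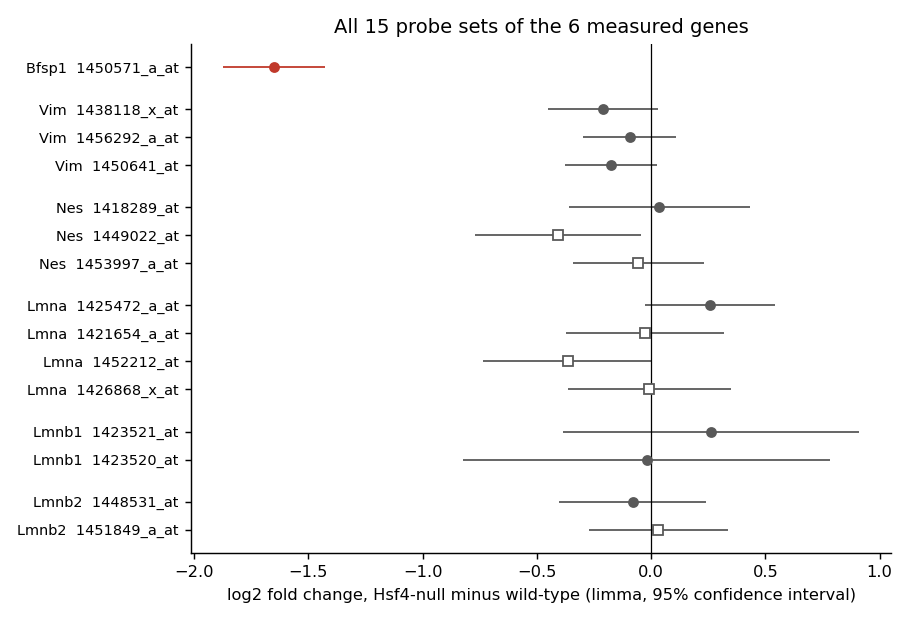
Log2 fold change, Hsf4-null minus wild-type lenses (horizontal axis), for each of the 15 probe sets, with 95% confidence intervals from limma on 3 arrays per group. Round points are probe sets with a mean above the median of all probe sets, open squares are dimmer ones, and the red point, Bfsp1 at -1.65, is the one with an adjusted p under 0.05.

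Nestin transcript was low on the array's scale, and its brightest probe set had a mean only slightly above the median of probe set means. The brightest of 3 Nes probe sets lay at 5.68, 5.57 and 5.29 in wild-type and at 5.80, 5.23 and 5.61 in Hsf4-null lenses, so the groups overlapped. Its log2 fold change was 0.04 (limma, adjusted p = 0.947, interval -0.36 to 0.43). A dimmer Nes probe set lay at 5.16, 4.82 and 4.87 against 4.73, 4.65 and 4.25, with no overlap and a difference of -0.41 (limma, adjusted p = 0.271). The dimmest had a log2 fold change of -0.06. The last 2 lie under the median of probe set means, 5.30, and no detection calls were used.

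The A-type lamin gene did not pass in either direction, and its probe sets differed in sign. The brightest Lmna probe set lay at 6.96, 6.80 and 6.82 in wild-type and at 6.98, 7.34 and 7.03 in Hsf4-null lenses. Each Hsf4-null array was above each wild-type array, by a gap of only 0.02. It was the 1 member probe set separated upwards, as 9.37% of all probe sets were. Its log2 fold change was 0.26 (limma, adjusted p = 0.379, interval -0.03 to 0.54). The other 3 Lmna probe sets, with means from 3.37 to 5.06, are under the median, and had log2 fold changes of -0.03, -0.37 and -0.01. The probe set at -0.37, with 4.64, 4.53 and 5.07 against 4.22, 4.41 and 4.52, separated downwards by a gap of 0.01. Over all members, 6 of 15 probe sets were lower without overlap, beside 11.7% of all probe sets, and 1 was higher. Of the 6, 3 are of Vim and 1 each of Bfsp1, Nes and Lmna. With the mean of its 4 probe sets, Lmna had a log2 fold change of -0.04.

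The B-type lamin genes did not pass either. Lmnb2 lay at 6.75, 6.88 and 7.22 in wild-type and at 6.98, 6.80 and 6.83 in Hsf4-null lenses, a difference of -0.08 (limma, adjusted p = 0.835, interval -0.40 to 0.24). Its other probe set, at a mean of 3.51, is near the bottom of the scale. Lmnb1 lay at 9.94, 9.92 and 9.53 in wild-type and at 10.60, 9.42 and 10.16 in Hsf4-null lenses, so that the Hsf4-null group held both the highest and the lowest array. Its log2 fold change was 0.26 with a wide interval (-0.38 to 0.91; limma, adjusted p = 0.708). Its second probe set was also highest in Hsf4-null replicate 1 and lowest in Hsf4-null replicate 2, at 6.90 and 5.45. Without Hsf4-null replicate 2 the log2 fold change of Lmnb1 was 0.58 and without Hsf4-null replicate 1 it was -0.01, and neither passed.

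The spread of Lmnb1 between arrays of one genotype was larger than that of most genes. Its pooled within-group SD was 0.45, above that of 95.8% of genes brighter than the median, against 0.07 for Bfsp1 and 0.10 for Vim. After these values were seen, genes of cell division were set beside it. Mki67, the gene of the proliferation antigen Ki-67, lay at 8.07, 8.25 and 7.41 in wild-type and at 8.95, 7.60 and 8.64 in Hsf4-null lenses, and its log2 values correlated with those of Lmnb1 at r = 0.965 over the 6 arrays. For Top2a, a topoisomerase of dividing cells, r was 0.956, and for Pcna, the replication clamp, 0.965. Cdk1, the mitotic kinase that phosphorylates lamins, had an r of 0.784. Tmpo, a nuclear envelope partner of lamins, had an r of 0.888. Among 6888 genes brighter than the median, 13 had an r at or above that of Mki67, itself included, 31 one at or above that of Top2a and 559 one at or above that of Cdk1. The 5 genes most like Lmnb1 were Auts2 (0.996), Anapc4 (0.994), Zfp740 (0.985), Hmgb2 (0.982) and Cyb5b (0.981). These are descriptions over the same 6 arrays, with the division genes and Tmpo chosen after the fact.

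Hsf4-null replicates 1 and 3, high in Lmnb1 and Mki67, were also high in Tubb3. Summed retina and astroglia markers were 9077 and 9264 on them, against 4395 to 8826 in wild-type lenses and 7151 in Hsf4-null replicate 2. That sum is held up by Glul, which did not follow Tubb3. Glul lay at 12.92, 12.56 and 11.90 in wild-type and at 12.79, 12.69 and 12.86 in Hsf4-null lenses, highest in wild-type replicate 1. Of 12 measured markers in that list 0 passed limma, also at an unadjusted p under 0.05, and 10 had a positive log2 fold change. Otx2, a retinal transcription factor, lay at 7.59, 8.90 and 6.34 in wild-type and at 9.42, 5.90 and 9.20 in Hsf4-null lenses, with the same arrays high as for Tubb3. Crx and Nrl, photoreceptor transcription factors, were dimmer, with wild-type means of 4.65 and 4.92, and were likewise highest in wild-type replicate 2 and in Hsf4-null replicates 1 and 3. Rcvrn (recoverin) was near the bottom of the scale, with group means of 3.76 and 3.92. Summed macrophage markers were 483 to 1272 in wild-type and 902 to 1687 in Hsf4-null lenses, and summed vascular markers 1681 to 2311 and 2429 to 2495. At an unadjusted p under 0.05, 3 of 10 macrophage and 3 of 10 vascular markers were higher, beside 910 of all 12393 genes. Of either list 0 passed limma after adjustment. Summed pigment cell markers were 3001 to 4022 and 3470 to 4769, a sum held up by Mitf, whose means of 11.42 and 11.44 hardly differed. Among the other pigment genes Tyrp1 lay at 8.98, 8.61 and 7.27 in wild-type and at 9.93, 8.89 and 9.95 in Hsf4-null lenses, a difference of 1.30, with Dct at 1.30 and Pmel at 1.27. Of 6 pigment markers measured, 2 were higher at an unadjusted p under 0.05, beside the same 910 of 12393 genes. Of the 6, 0 passed limma after adjustment, and the median log2 fold change was 0.96. Of 10 mesenchyme markers 2 rose, Col1a1 and Twist1, where 96 of all 12393 genes rose. Summed mesenchyme markers were 1726 to 1964 and 1999 to 2508, a sum held up by Pdgfra, with means of 10.30 and 10.24. Lens epithelium markers summed to 25252 to 26108 and 24272 to 25316. That sum is held up by Cryab (means 13.88 and 13.73) and Gja1 (12.87 and 12.97). Of 7 measured, 0 passed limma after adjustment. At an unadjusted p under 0.05, 1 was lower, beside 1038 of 12393 genes. That was Foxe3, dim at a wild-type mean of 4.18, at -0.38 with a limma adjusted p of 0.0808. Cornea and skin markers summed to 144.3 to 150 and 127.5 to 162.7. The part of such tissue in the Lmnb1 and Nes values was not tested.

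**Figure D3:**
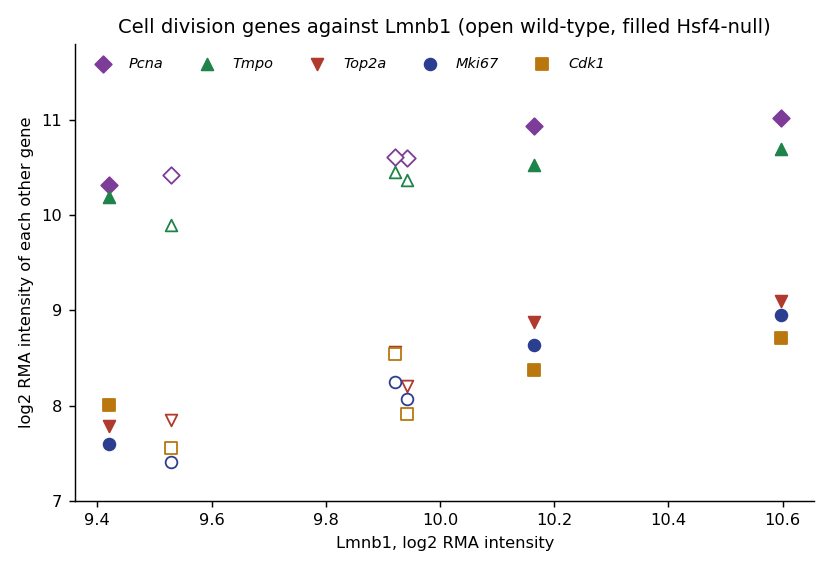
Log2 RMA intensity (vertical axis) of the cell division genes Mki67, Top2a, Pcna and Cdk1 and of Tmpo, a nuclear envelope partner of lamins, against that of Lmnb1 (horizontal axis). There is a point per array and gene, open for wild-type and filled for Hsf4-null lenses. Hsf4-null replicate 2, at 9.42, and Hsf4-null replicate 1, at 10.60, are the extremes of Lmnb1, and Mki67 is 7.60 and 8.95 on these arrays.

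Differences between lamins within an array did not separate the genotypes. Lmna minus Lmnb1 shifted by -0.01 (two-sided exact permutation test, p = 0.9) and Lmnb2 minus Lmnb1 by -0.34 (p = 0.5 by the same exact test), with SDs of 0.21 and 0.47 in wild-type and 0.78 and 0.51 in Hsf4-null lenses.

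Genes whose proteins work with the filaments and the lamina were read from lists of known partners. Of 14 measured inner nuclear membrane and pore proteins that hold the lamina, 0 rose and 0 fell by limma, 0 had an unadjusted p under 0.05 and 0 passed the methods' t-test at that level. Their log2 fold changes ran from -0.28 to 0.23, with a median of 0.03. Among them, emerin (Emd) was at 0.16 (standard error 0.11), the lamin B receptor (Lbr) at 0.01 (standard error 0.18) and Sun1, which spans the inner membrane, at 0.00 (standard error 0.11). Of 13 measured enzymes that process lamins or cut filaments, 0 rose and 0 fell by limma, and 2 passed at an unadjusted p under 0.05, a share near that of all genes, the farnesyltransferase subunit Fnta at -0.29 and the lens calpain Capn3 at 0.28, with adjusted p of 0.17 and 0.251 from limma. The methods' t-test passed 2 of the 13 unadjusted, also a share near that of all probe sets, and 0 adjusted. Zmpste24, the protease that matures lamin A, was at -0.03 (standard error 0.09).

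The list of cytolinkers holds mostly plakins and desmosomal proteins that anchor intermediate filaments. Among 10 measured, 1 fell and 0 rose, beside 2.11% of all genes that fell. Ppl, or periplakin, lay at 7.16, 7.22 and 7.41 in wild-type and at 6.68, 6.65 and 6.64 in Hsf4-null lenses. It fell by 0.60 (limma, adjusted p = 0.0233, standard error 0.10), and the groups did not overlap. Leaving out any 1 array other than wild-type replicate 1 ended the call, with adjusted p from 0.0699 to 0.092. At an unadjusted p under 0.05 limma passed 5 of the 10, 3 higher and 2 lower, beside 15.7% of all genes, and the methods' t-test also passed 5 unadjusted and 0 adjusted. Lower beside Ppl was Pkp2 (plakophilin 2), at -0.68, with a limma adjusted p of 0.117. Higher were Jup (plakoglobin) at 0.79, Dsp (desmoplakin) at 0.44 and Fam83h at 0.34, with limma adjusted p of 0.114, 0.129 and 0.155. Dsp and Fam83h were dim, with wild-type means of 4.36 and 4.11. Plec, or plectin, was at 0.05 (standard error 0.13).

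Of 10 measured partners of the beaded filament in fiber cells, 1 fell and 0 rose, beside 2.11% of all genes that fell, with a median log2 fold change of -0.09. At an unadjusted p under 0.05, 2 were lower and 0 higher, beside 1038 lower and 910 higher of all 12393 genes. Tmod1, tropomodulin, which caps actin filaments of the membrane skeleton, lay at 10.85, 10.89 and 10.92 in wild-type and at 10.14, 10.38 and 10.10 in Hsf4-null lenses. It fell by 0.68 (limma, adjusted p = 0.0175, standard error 0.11). Leaving out wild-type replicate 1 or Hsf4-null replicate 2 kept the call, and leaving out any of the other arrays ended it, with adjusted p from 0.0664 to 0.0762. The other of the 2 was Tjp1, a junction scaffold, at -0.28 without overlap of the groups and with a limma adjusted p of 0.295. The alpha-crystallins, which bind filensin and phakinin, did not pass: Cryaa was at -0.01 (standard error 0.09) and Cryab at -0.15 (standard error 0.09).

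**Figure D4:**
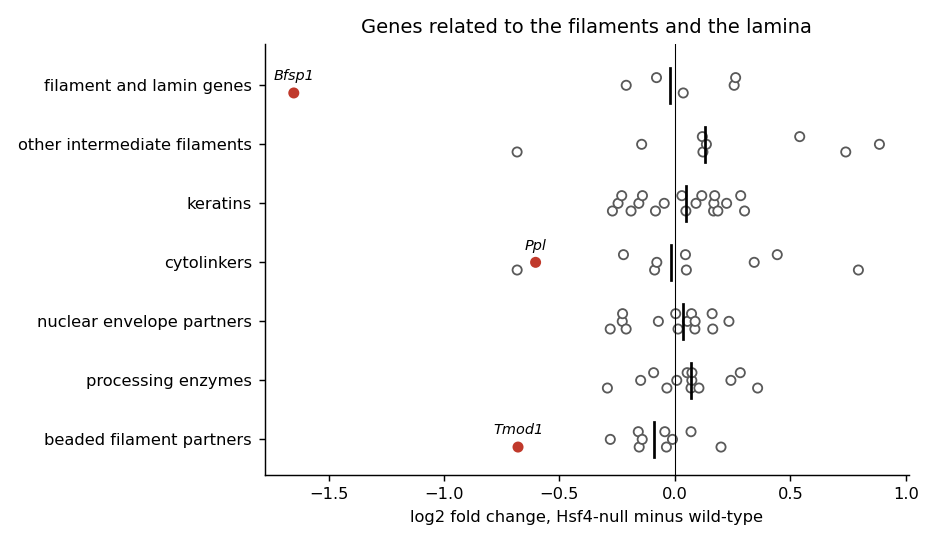
Log2 fold change, Hsf4-null minus wild-type lenses (horizontal axis), of the genes of 7 lists, each by its brightest probe set, with a vertical bar at the median of a list. Bfsp1, Ppl and Tmod1, which passed limma, are filled, and all lie to the left of 0.

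Other intermediate filament genes did not pass. Of 8 measured besides keratins, 0 rose and 0 fell by limma. The methods' t-test passed 2 unadjusted, beside 12.9% of all probe sets, and 0 adjusted. By limma 1 had an unadjusted p under 0.05, beside 15.7% of all genes. The 1 was Sync, syncoilin, a filament protein of muscle, at 5.83, 5.52 and 5.33 in wild-type and 6.49, 6.14 and 6.26 in Hsf4-null lenses, a difference of 0.74 (limma, adjusted p = 0.0534). It passed in 8 of 16 other settings. With the mean of its 3 probe sets Sync was at 0.26 (limma, adjusted p = 0.304). Nefl, a neurofilament gene, was at 5.62, 7.21 and 5.35 in wild-type and at 7.52, 5.60 and 7.71 in Hsf4-null lenses, and was thus high on the same arrays as Tubb3. Of 19 measured keratins 0 rose and 0 fell by limma, and 1 had an unadjusted p under 0.05, beside 15.7% of all genes. The methods' t-test passed 2 of the 19 unadjusted, beside 12.9% of all probe sets, and 0 adjusted. Of these keratins 1 was brighter than the median, Krt10.

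The genes most like Bfsp1 across the 6 arrays were Eif5b, a translation initiation factor (Pearson r = 0.997), Caprin2, an RNA granule protein (0.997), Scamp5 (0.995), Mrps12 (0.995) and Map3k5 (0.995), among 6888 genes brighter than the median. Each fell: Caprin2 had the smallest change, -1.01, and Eif5b the largest, -3.24. The most opposite were Slc46a1 (-0.993), Mical2 (-0.992), Pygm (-0.992), Dhx32 (-0.991) and Meg3 (-0.99). Since Bfsp1 splits the arrays by genotype, these values rest on the difference between the groups, and 189 of the genes had an r above 0.95.

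**Figure D5:**
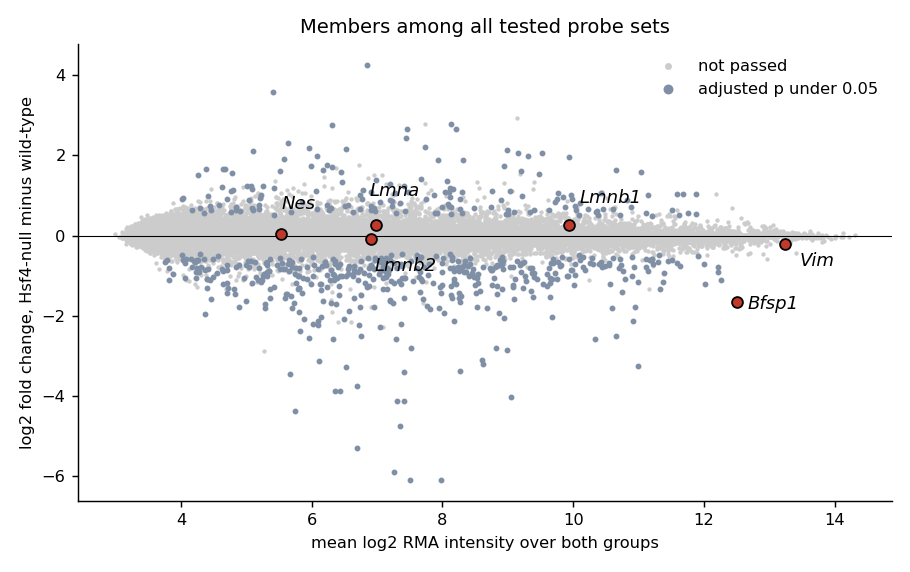
Log2 fold change, Hsf4-null minus wild-type lenses (vertical axis), against mean log2 RMA intensity (horizontal axis) for all 22626 tested probe sets, those with an adjusted p under 0.05 in blue-grey. The brightest probe sets of the 6 measured members are in red, with Bfsp1 at -1.65 alone among called probe sets at its level or above.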

How the data were processed

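RNA of newborn lenses from 3 wild-type and 3 Hsf4-null samples was hybridized to Affymetrix arrays. The authors applied RMA, which makes arrays share a distribution, and deposited the resulting intensity values on a linear scale. The RMA software version is not given in the labels or methods. Each deposited intensity was taken to log2. After 64 array controls among 22690 probe sets were removed, limma 3.58.1 in R 4.3.3 (lmFit, eBayes, no block) was fitted to the other 22626, with Benjamini-Hochberg adjustment over all of them and calls at an adjusted p under 0.05. Dim probe sets were kept. Symbols of 20351 of 20380 probe sets with 1 symbol were matched through the gene identifier to RefSeq genes of GRCm38.p6. For a gene with several probe sets, the brightest by mean over the 6 arrays stood for it.

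The members, lists and rules were chosen with earlier results of these data known. Named genes are the members, Hsf4, up to 4 called genes of each list in each direction, and the 5 genes most and least correlated with Bfsp1; others are named as list members not called, as marker genes or as chosen after their values were seen. List genes without a probe set of 1 symbol are not counted. Differences within an array were tested by an exact permutation over arrays. Alternatives were the replicate block, the methods' t-test, trended and robust variance, array weights, median centring, quantile normalization, a filter on dim probe sets, a pseudocount of 16, the mean of a gene's probe sets and leaving out each array. The methods combine their t-test with SAM, and only the t-test was run here. The difference Bfsp1 minus Bfsp2 was planned and could not be run, so 3 pairs were adjusted together in place of 4. The procedure was tested on simulated arrays with independent noise for each probe set. That test did not cover differences between arrays that many genes share. Precision is limited by having 6 arrays, whose spread is all that the p-values measure.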

Additional observations from a re-analysis of the deposited data

How the results depend on the processing

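Bfsp1 was the 1 member gene called under all 16 alternatives. The count of member probe sets called, 1, became 3 with the methods' t-test unadjusted and 2 with it adjusted. The fold changes of Vim (-0.29 to -0.16) and the shift of Bfsp1 minus Vim (-1.49 to -1.40) kept their direction. Lmnb2 minus Lmnb1 kept its sign but not its size, from -0.073 without wild-type replicate 3 to -0.63 without Hsf4-null replicate 2. With the mean of a gene's probe sets, Nes turned to -0.14 and Lmna to -0.036. Leaving out single arrays, Lmna ran from 0.15 to 0.32, Nes from -0.090 to 0.19, Lmnb1 from -0.0052 to 0.58, Lmnb2 from -0.18 to 0.055 and Lmna minus Lmnb1 from -0.44 to 0.33, none past the threshold, and the cause was not tested. The 2 partner genes called, Ppl and Tmod1, became 1 with the replicate block (Sync alone; adjusted p = 0.0764 for Ppl and 0.0571 for Tmod1), 13 with the methods' t-test unadjusted, 0 with it adjusted and 4 with trended and robust variance. Leaving out single arrays gave 0 to 5: 5 when wild-type replicate 1 was dropped, 1 when Hsf4-null replicate 2 was, and 0 for any other.

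Whether the replicate numbers pair the arrays could not be settled. Deviations from group means of same-numbered arrays correlated at 0.252, -0.206 and -0.0806, and wild-type replicate 3 went best with Hsf4-null replicate 2 (0.406). Such deviations cancel within a group, so these correlations are not independent. For the difference of Bfsp1 minus Vim, pairs of same-numbered arrays gave an exact p of 0.25, the smallest possible. The replicate block changed no call of a member.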
